A study of Mus musculus with 8 samples.

Results

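Of the 8 arrays of isolated mouse glomeruli, 3 stood apart by a high podocyte signal and a low proximal tubule signal. These podocyte-rich arrays are control 2, Tln1 vehicle 3 and Tln1 VPA 3, and they are set against the 5 other arrays, called tubule-rich here: control 1, Tln1 vehicle 1 and 2, and Tln1 VPA 1 and 2. The 2 sets were chosen from the same expression values that are described below, so the difference between them is a description without a test. Each study group has 1 podocyte-rich array. The set difference of a gene is that array minus the mean of the tubule-rich arrays of the same group, given for each of the 3 groups and as their mean ± the SD of the 3 differences.

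Total RNA of the isolates was labelled with biotin and hybridised to Affymetrix arrays, and the values are log2 expression values, on which 1 unit is a doubling. Mice of the line Tln1 Pod-rtTA TetO-Cre carry, per that name, a Cre recombinase that doxycycline switches on in podocytes and that acts on Tln1, the gene of the integrin adaptor talin 1. All groups, controls included, received doxycycline for 3 weeks from an age of 8 weeks and were 13 weeks old. Control mice make up 2 arrays, mice of that line make up 3 with vehicle for 2 weeks after doxycycline (Tln1 vehicle), and 3 with the histone deacetylase inhibitor valproic acid over the same time (Tln1 VPA). The genotype of the control mice beyond that word, and whether they received vehicle, is not given in the labels. The labels also do not say that each array is a separate animal, so every SD here may be technical in part. Because Cre is directed to podocytes, the isolate holds other cells and the place of the probe set in the gene is not known here, Tln1 itself checks no label. It stood at 8.64, 8.60 and 8.59 on the podocyte-rich and at 8.76 to 8.97 on the tubule-rich arrays.

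A glomerulus is a tuft of capillaries lined by fenestrated endothelium, held by mesangial cells and wrapped by podocytes, whose interlocking foot processes are bridged by the slit diaphragm. The proximal tubule begins at the glomerulus and takes back glucose, amino acids, phosphate and filtered protein through transporters and endocytic receptors of its brush border. The loop of Henle, the distal tubule and the collecting duct follow. Tubule fragments can come along when glomeruli are isolated, and in bulk RNA fewer cells of a type and less RNA per cell cannot be told apart.

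Of 22180 genes, 71 (0.320%) were higher and 200 (0.902%) were lower by 1 log2 unit or more in all 3 groups on the podocyte-rich array. All 3 podocyte-rich arrays lay above all 5 tubule-rich arrays for 2933 genes (13.2%) and below them for 8120 (36.6%). The whole distribution was shifted: the median set difference of all genes was -0.16 (control), -0.12 (Tln1 vehicle) and -0.15 (Tln1 VPA), or -0.14 for the mean of the 3, and 33.8% of genes were above 0. Differences of gene lists are therefore also given relative to -0.14. Centring each array on its median turned the split of 71 higher and 200 lower (26.2% higher) into 133 and 116 (53.4% higher), and quantile normalisation of all 8 arrays gave 143 and 106 (57.4% higher). The same 71 genes were among the higher ones under both scalings. For centring this was fixed beforehand, since it raised every difference, and quantile normalisation also moved the median of all genes up, to -0.01. Of the 200 lower genes, 116 stayed with centring and 106 with quantile normalisation. Without either control array the counts were 137 and 388, and without Tln1 VPA 3 they were 150 and 333, where only 2 groups were left to pass the threshold. Just inside and outside the threshold, the smallest of the 3 differences was 1.01 for Sgip1 and 0.9995 for Clic5, and on the lower side -1.0014 for Frrs1 and -0.99996 for Rnf181.

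Podocyte genes were higher on the podocyte-rich arrays through all 4 kinds of podocyte gene listed. Of 40 measured podocyte markers, 35 had a mean set difference above 0, as did 33.8% of all genes. Of the 40, 31 were above 0 in all 3 groups, and 6 passed 1 unit in all 3, as did 0.320% of all genes. Their median difference was 0.70, or 0.84 relative to all genes, and the group medians were 0.99 for control, 0.59 for Tln1 vehicle and 0.48 for Tln1 VPA. For 26 of the 40 the podocyte-rich arrays lay above the others without overlap, as they did for 13.2% of all genes. These counts describe how the arrays were selected and carry no test.

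Nphs1, which encodes the slit diaphragm protein nephrin, stood at 9.76 on control 2, 9.36 on Tln1 vehicle 3 and 8.71 on Tln1 VPA 3. On the tubule-rich arrays it was 7.59 in control 1, 8.33 and 8.02 in Tln1 vehicle 1 and 2, and 7.21 and 8.00 in Tln1 VPA 1 and 2. All 3 podocyte-rich arrays were thus above all 5 others, with differences of 2.17, 1.18 and 1.10 (mean 1.48 ± 0.59, 2.8-fold). Ptpro, a receptor tyrosine phosphatase of the podocyte surface, had the largest difference of all list members that were higher, at 9.82, 9.26 and 9.09 against 6.32, 7.70, 7.42, 6.72 and 7.44. Its mean difference was 2.40 ± 0.96, and the control pair differed most, by 3.49. Podxl, the gene of the surface sialomucin podocalyxin, was at 11.13, 10.999 and 10.67 against 9.31 to 10.06. Kirrel, whose product NEPH1 binds nephrin, differed by 1.26 ± 0.41. Of the slit diaphragm list all 9 measured members were above 0 in all 3 groups, down to 0.15 ± 0.08 for the cation channel gene Trpc6, whose level of 3.30 to 3.67 was low on every array.

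Among the genes of the podocyte cytoskeleton, Ddn (dendrin) differed by 1.28, Nes, an intermediate filament gene, by 1.20, Clic5 by 1.17 and Inf2, an actin-nucleating formin, by 0.84. Ddn shows how far the groups were apart, with 2.34 (control), 1.01 (Tln1 vehicle) and 0.47 (Tln1 VPA). Synpo (synaptopodin), an actin-associated protein of foot processes, was at 7.26, 7.15 and 6.58 on the podocyte-rich arrays against 6.10 to 6.68. It overlapped between the sets through Tln1 VPA 3, and its mean difference was 0.47 ± 0.24. Wt1, a transcription factor on which podocytes depend, was at 9.16, 8.45 and 8.31 against 6.56, 7.38, 7.29, 6.78 and 7.33. Its mean difference was 1.66 ± 0.82, close to those of Tcf21 (1.64) and above those of Foxc2 (1.21) and Lmx1b (0.71). Foxd2 went the other way in the mean (-0.25) and between the groups, from 0.37 in control to -0.61 in Tln1 VPA.

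Surface, matrix and secreted podocyte genes differed least, with a median of 0.49, or 0.30 without either control array and 0.79 with quantile normalisation. Robo2, a guidance receptor of foot processes, had 1.67, the cell cycle inhibitor gene Cdkn1c 1.50, Thsd7a 1.21 and Sema3g 0.91. The 4 members below 0 were Pla2r1 (-0.38), Col4a5 (-0.13), Bmp7 (-0.07) and Col4a4 (-0.01). Pla2r1 was below 0 in all 3 groups. The collagen chain genes, which are part of the glomerular basement membrane, were thus near 0 or near the median of all genes. The genes whose levels ran most closely with Nphs1 over the 8 arrays were Dst (Pearson r = 0.989), Robo2 (0.986) and Clic3 (0.986), as a description over arrays that share the 2 sets. Dst did so with a small span, from 8.76 to 9.18.

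**Figure D1:**
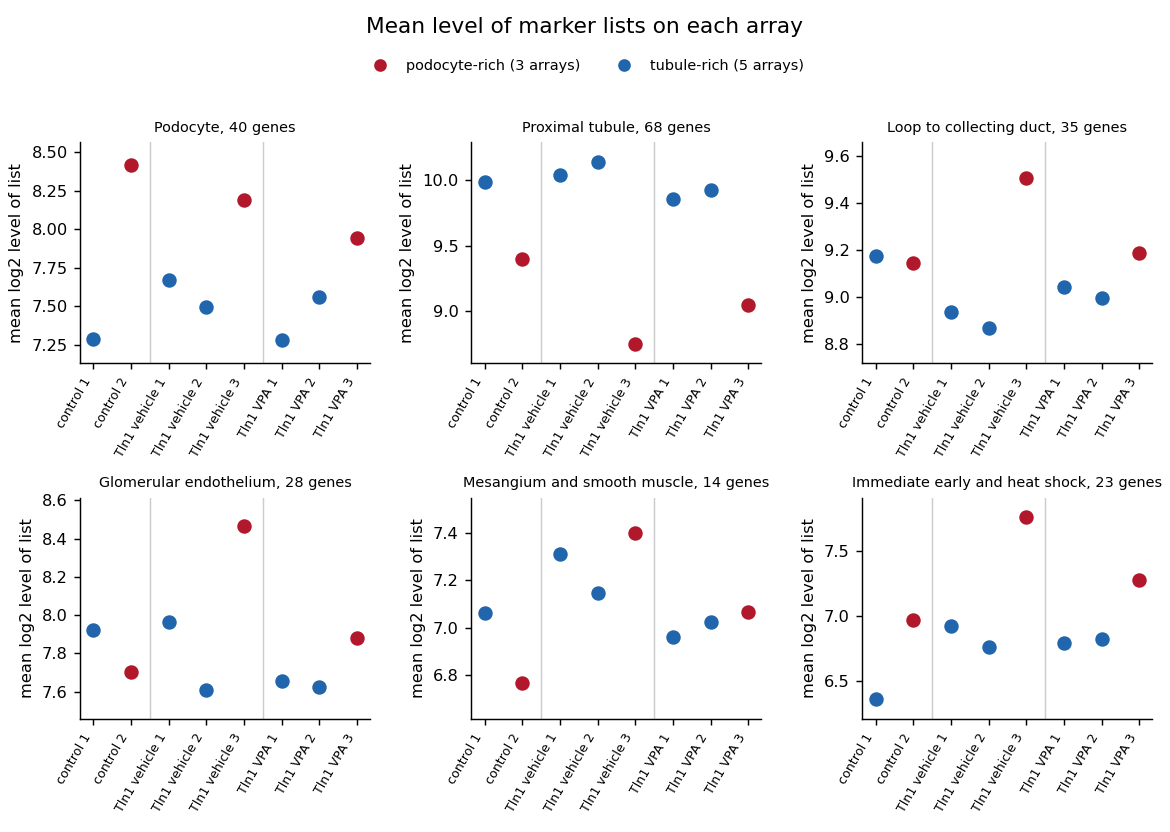
Mean log2 level of 6 gene lists (y axis) on each of the 8 arrays (x axis), 1 point per array, red for podocyte-rich and blue for tubule-rich, with grey lines between the study groups and y axes that differ and do not start at 0. The podocyte list lies at 7.94 to 8.41 against 7.28 to 7.67 and the proximal tubule list at 8.75 to 9.39 against 9.85 to 10.14, while the sets overlap for the loop to collecting duct, endothelial and mesangial lists.

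Proximal tubule genes were lower on the podocyte-rich arrays in every segment and function listed. Of 68 measured markers, 64 had a mean difference below 0, while 33.8% of all genes were above 0. Of the 68, 59 were below 0 in all 3 groups, and 5 passed 1 unit in all 3, as did 0.902% of all genes. For 46 the podocyte-rich arrays lay without overlap below the tubule-rich arrays, as they did for 36.6% of all genes. The median difference was -0.93, or -0.79 relative to all genes, with -0.55 (control), -1.33 (Tln1 vehicle) and -0.77 (Tln1 VPA). The order of the groups was therefore not that of the podocyte genes, where control had the largest difference. As for podocyte genes, these values were used to select the arrays.

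Proximal tubule genes are known targets of the HNF1 and HNF4 transcription factors, so their promoters are shown with the core of the HNF1 motif. The letters searched were GTTAAT and its reverse complement ATTAAC in the 250 bases before the start of each gene (RefSeq, build GRCm38.p6), for the 16990 of 22180 genes with a promoter sequence. This core was found in 14 of 56 proximal tubule promoters (25%), in 2 of 30 podocyte promoters (6.67%) and in 6.93% of all promoters of the same length. Shown are 120 bases for the 3 proximal tubule genes with a match and the largest differences, and for Robo2, the podocyte gene with a match and the largest difference. Capitals mark the match.
Slc7a7: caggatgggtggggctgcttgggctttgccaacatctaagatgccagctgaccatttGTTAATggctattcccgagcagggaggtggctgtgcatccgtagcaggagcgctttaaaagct
Slc16a10: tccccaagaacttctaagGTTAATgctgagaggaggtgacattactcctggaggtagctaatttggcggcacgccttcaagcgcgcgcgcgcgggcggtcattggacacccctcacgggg
Pck1: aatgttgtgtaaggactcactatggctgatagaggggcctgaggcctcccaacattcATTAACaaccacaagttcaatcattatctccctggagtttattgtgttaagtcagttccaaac
Robo2: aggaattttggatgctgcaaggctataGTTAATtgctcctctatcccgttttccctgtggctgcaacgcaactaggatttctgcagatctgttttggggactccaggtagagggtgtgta

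The sequences lie at chr14:54409496-54409615 on the minus strand for Slc7a7, chr10:40142385-40142504 on the minus strand for Slc16a10, chr2:173152824-173152943 on the plus strand for Pck1 and chr16:75447424-75447543 on the minus strand for Robo2. All are written 5′ to 3′ on the strand of the gene, upstream of its start. The match begins 86 bases before the start in Slc7a7, 232 in Slc16a10, 192 in Pck1 and 223 in Robo2. A match is a string of letters and not a measured binding site. The HNF4 letters CAAAGTCCA, or TGGACTTTG on the other strand, were in 2 of 56 proximal tubule promoters (3.57%), in 0 of 30 podocyte promoters and in 0.471% of all. The homeobox core TAATTA was in 5 proximal tubule promoters (8.93%), 0 of 30 podocyte promoters and 4.98% of all, and in 1 proximal tubule promoter it overlapped the HNF1 core. The share with the HNF1 core was 9.33% of the promoters of the 200 lower genes (150 with a sequence) and 12% of those of the 71 higher genes (50 with a sequence).

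Slc7a7, with the first of these promoters, encodes a chain of a basolateral amino acid exchanger and had the largest difference of the basolateral transporters. It stood at 9.78, 8.94 and 10.61 on the podocyte-rich arrays and at 12.05, 11.73, 11.66, 11.42 and 11.46 on the tubule-rich ones. The sets did not overlap, and the mean difference was -1.95 ± 1.00, with only -0.83 in Tln1 VPA. Slc16a10, an aromatic amino acid transporter gene, had -1.17, and Slc22a2, an organic cation transporter gene, -1.55. The glucose exit transporter gene Slc2a2 had -0.96. Slco4c1, an organic anion transporter gene, went the other way by 0.88 and was above 0 in all 3 groups.

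Of the 16 apical transporter genes, all had a mean difference below 0, while 33.8% of all genes were above 0. In all 3 groups 3 passed, as did 0.902% of all genes. Slc5a2, the SGLT2 glucose transporter gene of the early proximal tubule, was at 10.77, 10.20 and 10.33 against 12.02, 11.92, 12.03, 11.83 and 11.81. Its 3 differences of -1.25, -1.77 and -1.49 lay close together (mean -1.50 ± 0.26, 2.84-fold). The neutral amino acid transporter gene Slc6a19 had -1.48, Slc17a3 -1.84 and Slc17a1 -1.45, the last without passing in control. Slc34a1, the phosphate transporter gene NaPi-IIa, differed by only -0.50 ± 0.17, from 12.97, 12.54 and 12.70 to between 13.11 and 13.34. Proximal tubule transcripts were thus also measured on the podocyte-rich arrays. Aldh4a1 (Pearson r = 0.997), Pccb (0.996) and Fads2 (0.994), which encode enzymes of amino acid and fatty acid metabolism, ran most closely with Slc34a1 over the 8 arrays.

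The endocytic receptor genes Lrp2 (megalin) and Cubn (cubilin) had -0.70 ± 0.27 and -0.60 ± 0.27, with Lrp2 at 11.42 to 11.96 against 12.18 to 12.46. Quantile normalisation of all 8 arrays moved Slc34a1 to -0.25, Lrp2 to -0.41 and Cubn to -0.29. Within the same list Dpep1, a brush border dipeptidase gene, had -1.45, Mep1b -1.26, the folate receptor gene Folr1 -0.99 and Vil1 (villin) -0.98. Of the metabolic genes, Cyp4b1 had -1.55, Gatm, for the first step of creatine synthesis, -1.37, and Gldc -1.30. Cyp27b1, the vitamin D 1-alpha-hydroxylase gene, had -1.48 and rested on control 1, which was at 9.07 while the other 7 arrays lay between 5.31 and 6.56. Hpd, for tyrosine breakdown, was higher by 1.11 and above 0 in all 3 groups. The transcription factor genes Hnf4g (-1.21), Maf (-1.16), Hnf4a (-0.85) and Nr1h4 (-0.59) were all below 0 in all 3 groups.

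Genes of the straight segment of the proximal tubule had a list median of -1.12. Slc7a13, an amino acid transporter gene of that segment, differed by -6.78 in Tln1 vehicle and -5.20 in Tln1 VPA but by -0.84 in control. In control it was low on both arrays (4.10 and 3.26). It was high on the tubule-rich Tln1 arrays alone (7.56 to 10.39), as was the male-biased gene Cyp2j13 described below. Whether its difference reflects tubule content or the sex of the mice was not tested. Acy3 had -1.87, Slc16a9 -1.77 and Atp11a -1.18. Slc22a13 (0.41) and the glucose transporter gene Slc5a1 (0.11) were above 0. Without Tln1 vehicle 3, the list median was -0.74.

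The later nephron did not share the direction of the proximal tubule. Of 35 markers of the loop of Henle, distal tubule and collecting duct, 28 had a mean difference above 0, as did 33.8% of all genes. None passed 1 unit in all 3 groups in either direction, as 0.320% of all genes did upward and 0.902% downward. Their median was 0.31, or 0.45 relative to all genes, with -0.03 (control), 0.63 (Tln1 vehicle) and 0.33 (Tln1 VPA). Without Tln1 vehicle 3 the median was 0.16. The tubule-rich arrays thus held more signal of the proximal tubule, but by these medians not of the later segments.

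Slc12a3, the thiazide-sensitive cotransporter gene of the distal convoluted tubule, stood at 12.03, 12.24 and 11.96 against 11.34, 10.89, 10.29, 11.06 and 11.46. It did not overlap and was higher by 1.01 on the podocyte-rich arrays. Trpm6, a magnesium channel gene of the same segment, had 1.04, Klhl3 0.70, and Slc8a1 -0.95. All 9 principal cell genes were above 0, led by the water channel genes Aqp4 (0.67) and Aqp3 (0.53) and the sodium channel subunit genes Scnn1g (0.41) and Scnn1b (0.40), and Aqp2 was near 0 (0.04 ± 0.27). Of the intercalated cell genes, Foxi1 had 0.70, Slc4a9 0.69, Atp6v1g3 0.69 and Slc26a4 0.65, while Slc4a1 (-0.35), Atp6v0a4 (-0.17), Rhbg (-0.16) and Aqp6 (-0.13) were below 0.

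Genes of the thick ascending limb differed in direction between the groups, with a median of -0.60 (control), 0.59 (Tln1 vehicle) and 0.53 (Tln1 VPA). Umod (uromodulin), the main protein of that segment, was at 11.69 on control 1 and 10.87 on control 2, at 11.30, 10.83 and 11.65 on Tln1 vehicle 1 to 3, and at 11.19, 10.93 and 11.09 on Tln1 VPA 1 to 3. The sets overlapped, and its mean difference was -0.07 ± 0.71. Egf, also of that segment, had -0.47 in control and 0.78 and 0.81 in the Tln1 groups. Bsnd had a mean of 0.41, Kcnj1 0.34 and Cldn10 -0.84.

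**Figure D2:**
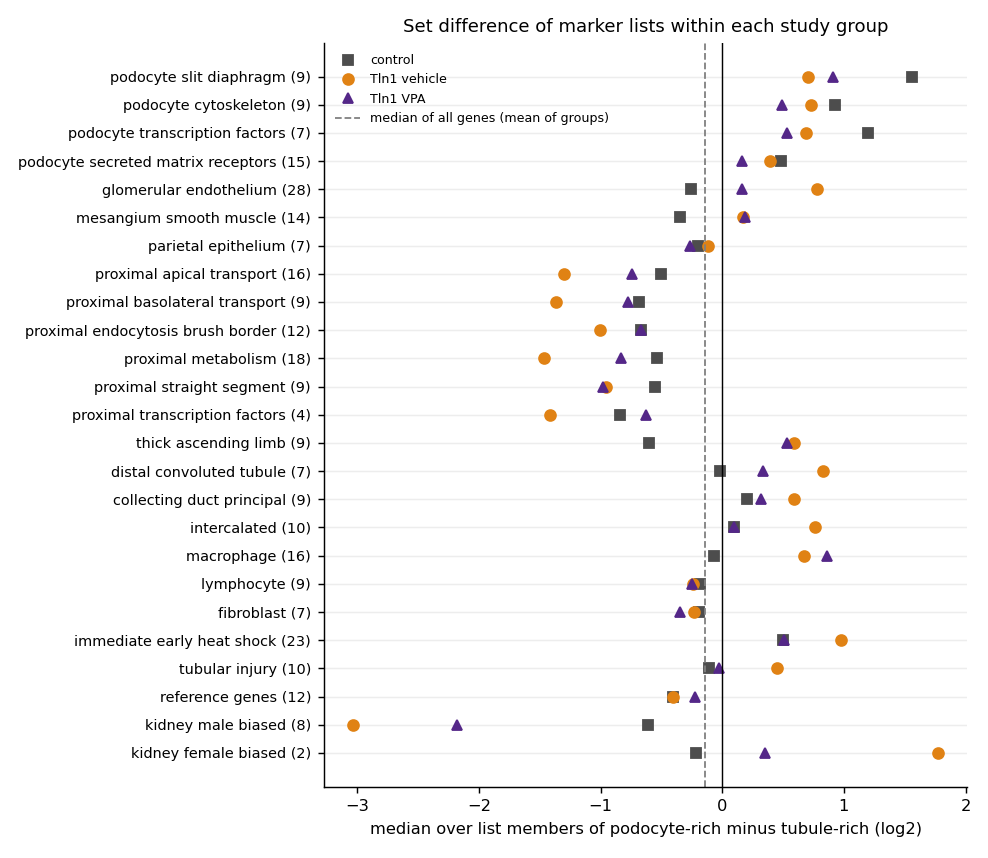
Median over list members of the set difference in log2 units (x axis) for 25 gene lists (y axis, measured members in brackets), with squares for control, circles for Tln1 vehicle and triangles for Tln1 VPA. The dashed line marks the median of all genes at -0.14, and the podocyte lists lie to its right and the proximal lists to its left in all 3 groups, while thick ascending limb lies on opposite sides of 0 in control and in the Tln1 groups.

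The other cells of the glomerulus did not move as podocytes did. Of 28 endothelial genes, 20 had a mean difference above 0, as did 33.8% of all genes. The median, however, was -0.26 (control), 0.78 (Tln1 vehicle) and 0.16 (Tln1 VPA). None passed in all 3 groups, as 0.320% of all genes did upward and 0.902% downward. The median of the mean differences was 0.22, with 0.004 without Tln1 vehicle 3 and 0.50 without either control array. Kdr, the VEGF receptor 2 gene, was at 8.98, 10.39 and 9.19 on the podocyte-rich arrays and at 9.94, 10.05, 9.62, 9.50 and 9.41 on the tubule-rich ones. The podocyte-rich arrays thus included both its lowest and its highest level. Pecam1 had a mean of 0.32 ± 0.53 and Ehd3, a gene of glomerular endothelium, -0.12 ± 0.69. Cldn5, a tight junction gene, was above 0 in all 3 groups (mean 1.11), as were Sox17 (0.77), Plat (0.77) and Egfl7 (0.69). The Cldn5 differences of 1.88 (control), 0.86 (Tln1 vehicle) and 0.60 (Tln1 VPA) had the group order of the podocyte medians and not that of the endothelial list. Lpl (-0.43), Plvap (-0.40), Fli1 (-0.08), Tek (-0.07), Ramp3 (-0.06) and Cdh5 (-0.05) were below 0 in the mean.

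Of 14 mesangial and smooth muscle genes 7 were above and 7 below 0, while 33.8% of all genes were above 0. The median of 0.03 was 0.14 with centred arrays and between -0.065 and 0.131 when 1 array was left out. Pdgfrb, a receptor gene of mesangial cells, was at 6.66, 7.20 and 7.19 against 6.82, 7.82, 7.41, 7.01 and 7.15, and its sets overlapped. Itga8, an integrin gene of the mesangium, had -0.43 ± 0.12, Sfrp2 -0.68 and Cspg4 -0.38. Rgs5 had 0.47, Gata3 0.32, Myh11 0.32, Acta2 0.26, Cnn1 0.25, Mcam 0.21 and Des 0.07. Of these, Acta2, for smooth muscle actin, turned from -0.65 in control to 1.12 in Tln1 vehicle. For parietal epithelium, the outer wall of the glomerular capsule, the median was -0.01 (0.10 with centred or quantile normalised arrays). Its members ran from Cldn1 (-0.70) and Pax2 (-0.69) through Cdh6 (0.02) to Dcdc2a (0.19) and Dkk3 (0.21).

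**Figure D3:**
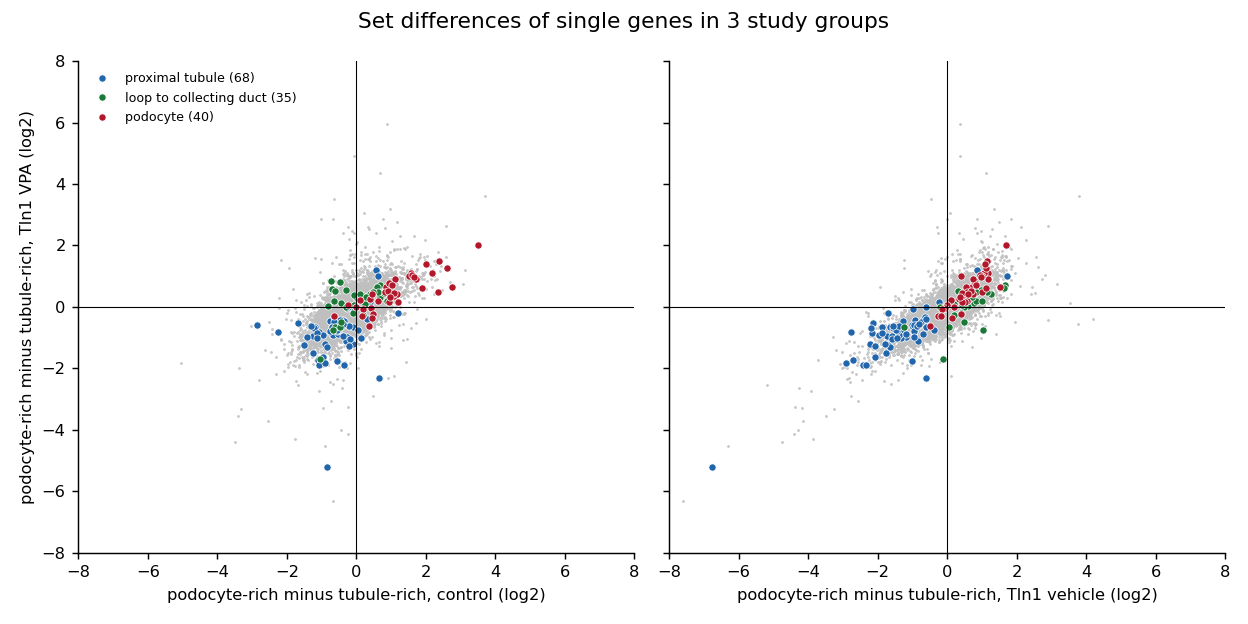
Podocyte-rich minus tubule-rich difference (log2) of each gene in Tln1 VPA (y axis) against that in control (left, x axis) and in Tln1 vehicle (right, x axis), with all 22180 genes in grey and 3 groups of markers in colour. Podocyte genes lie mostly at the upper right and proximal tubule genes at the lower left, with Slc7a13 farthest down at -5.20, and loop to collecting duct genes lie around 0 in the left panel.

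Immediate early and heat shock genes, which cells induce within minutes of disturbance, were also higher on the podocyte-rich arrays. Of 23 members, 20 had a mean difference above 0 (33.8% of all genes did) and 17 were above 0 in all 3 groups, with a median of 0.70. The group medians were 0.50 (control), 0.97 (Tln1 vehicle) and 0.51 (Tln1 VPA), which is not the group order of the podocyte medians. Hspa1a, the inducible HSP70 gene, was at 8.69, 9.97 and 9.19 against 6.88, 7.76, 8.08, 7.61 and 7.59, did not overlap and passed 1 unit in all 3 groups (1.82 ± 0.23). Fos had 1.66, Ccn1 1.24 and Klf4 1.13. Myc (-0.62), Socs3 (-0.51) and Egr3 (-0.06) were below 0. The relation of these genes to the podocyte signal was not tested.

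Macrophage genes had medians of -0.07 (control), 0.67 (Tln1 vehicle) and 0.86 (Tln1 VPA). Of 16 members, 13 were above 0 in the mean, as were 33.8% of all genes. The median of the mean differences was 0.59, or 0.39 without Tln1 VPA 3. Ctss, a lysosomal protease gene, was at 6.17, 6.89 and 8.66 on the podocyte-rich arrays against 5.39, 5.15, 4.98, 6.11 and 5.46. C1qb (1.15), Adgre1 (1.14) and Fcer1g (1.04) followed, while Aif1 (-0.37), Cx3cr1 (-0.34) and Mrc1 (-0.23) were below 0. Lymphocyte genes had a median of -0.25 (-0.14 with centred or quantile normalised arrays) and low levels, between 3.43 and 3.72 as a list mean on all arrays. Of these, Cd3d had -0.69, Cd2 -0.42, Cd3g -0.41, Cd4 0.59, Cd8a 0.21 and Cd3e 0.07. Of the fibroblast genes (median -0.41, or -0.11 for those above the median level of all genes), Col1a2 had 0.94, Dcn 0.38, Dpt 0.04, Col3a1 -0.87, Col1a1 -0.61 and Pdgfra -0.59. Of the tubular injury genes, Havcr1 (KIM-1), a marker of proximal tubule injury, had -1.40, with 6.53 and 6.21 on the tubule-rich Tln1 VPA arrays against 3.99 on the podocyte-rich one. Lcn2 had 0.59, Krt8 -0.52 and Sox9 0.48, Krt19 0.30, Cd44 0.29, Krt18 0.17, Vcam1 0.09 and Timp1 0.01. The erythroid list had no member that was measured.

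Transcripts that differ between male and female mice also followed the sets. Eif2s3y, a Y-linked gene, was at 2.83, 2.91 and 2.69 on the podocyte-rich arrays and at 3.80 (control 1), 6.46 and 7.71 (Tln1 vehicle 1 and 2) and 5.43 and 6.51 (Tln1 VPA 1 and 2) on the tubule-rich ones. Uty and Kdm5d had the same order of sets (means of -2.57 and -1.94). Xist, the RNA that coats the silenced X chromosome in female cells, was at 10.67, 10.94 and 10.47 against 9.71, 9.66, 7.38, 10.14 and 9.97. The sets did not overlap for any of these 4 genes. Of all genes, 36.6% lay wholly below and 13.2% wholly above on the podocyte-rich arrays. Eif2s3y was low on both control arrays (3.80 and 2.83). Xist and Eif2s3y were both high on Tln1 vehicle 1 (9.66 and 6.46) and on Tln1 VPA 1 (10.14 and 5.43) and 2 (9.97 and 6.51). Whether an array holds RNA of more than 1 animal was not tested.

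Proximal tubules of male and female mice differ in many genes, and 8 male-biased ones were measured. Cyp2j13, a cytochrome gene known from male kidney, was at 4.11 and 3.43 on control 1 and 2, at 10.44 and 11.27 on Tln1 vehicle 1 and 2, at 8.96 and 10.23 on Tln1 VPA 1 and 2, and at 3.24 and 3.27 on the other two. Its difference was -0.68 in control against -7.62 and -6.33 in the Tln1 groups. Slco1a1 (-3.92), the androgen-regulated gene Kap (-3.30) and Odc1 (-1.88) were lower in all 3 groups, whereas Cyp7b1 was higher in all 3 (1.23). The female-biased Slc7a12 had -0.85, 2.53 and 0.45, and Cyp4a14 a mean of 0.56. In control, Cyp2j13 was low on both arrays and Slco1a1 was at 3.56 and 2.66, while Kap was at 9.63 and 7.87 and Odc1 differed by -1.62. The proximal tubule median in control was -0.55. The part of sex-biased transcripts in the proximal tubule values of any group was not tested.

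**Figure D4:**
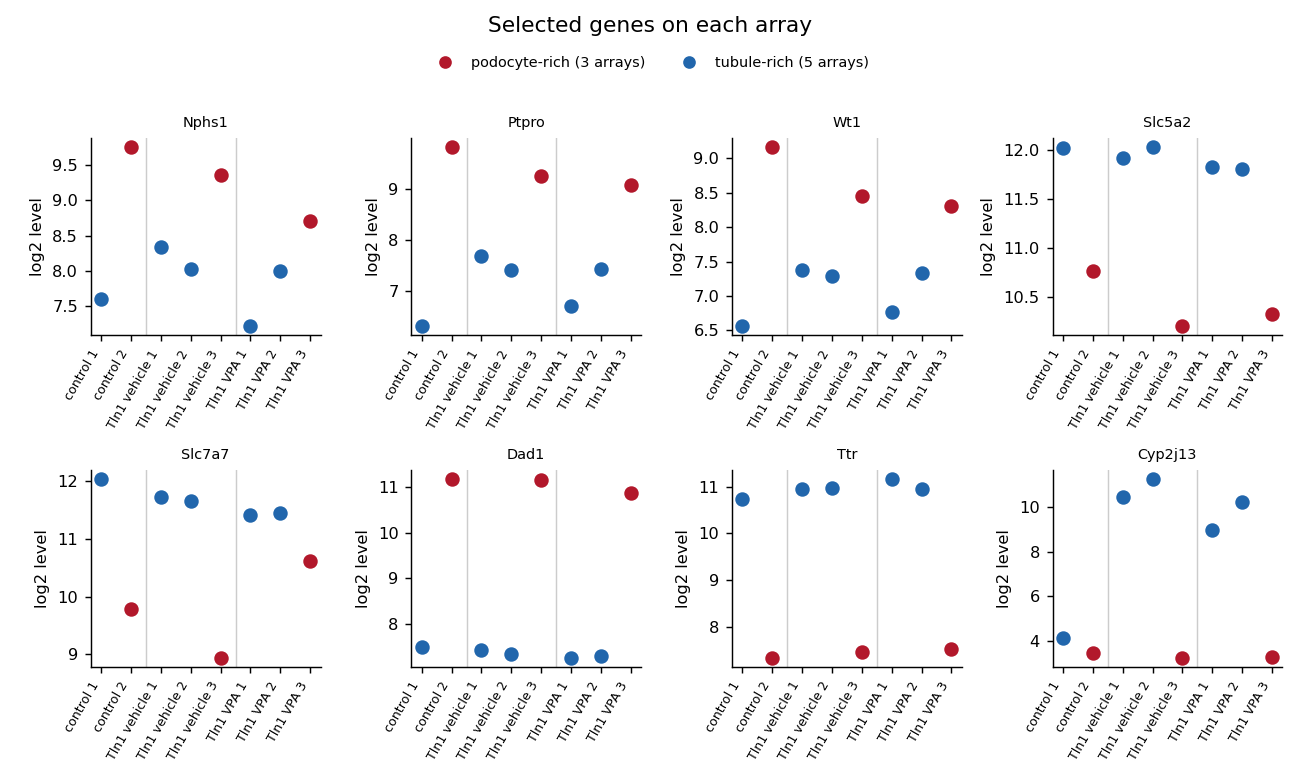
Log2 level (y axis, not starting at 0, and differing between panels) of 8 genes on each array (x axis), red for podocyte-rich and blue for tubule-rich, with 1 point per array and grey lines between study groups. Dad1 and Ttr step between 2 narrow levels, Nphs1, Ptpro, Wt1, Slc5a2 and Slc7a7 differ more between groups, and Cyp2j13 is high on the 4 tubule-rich Tln1 arrays alone.

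Of the 71 higher genes 8 were on any list, 6 of them podocyte genes, and of the 200 lower genes 8 were, 5 of them proximal tubule genes. Among all 22180 genes the lists had 283 measured entries, with 40 podocyte and 68 proximal tubule genes. The podocyte and proximal tubule signals were also used to select the arrays. The 10 largest among the higher genes were Dad1 (3.69), Snord70 (2.70), Ptpro, the GABA receptor subunit gene Gabra4 (2.26), Mir101c (2.16), Nell2 (2.14), Snord73b (1.92), Fgfbp1 (1.88), B3galt2 (1.87) and Arhgap28 (1.82). Among the lower genes they were Angptl7 (-4.21), Ttr (-3.48), Car3 (-3.47), Kap, the olfactory receptor gene Olfr1454 (-3.30), Ugt2b38 (-3.13), the histidine decarboxylase gene Hdc (-3.04), Gm906 (-2.80), Uty and Rps12-ps24 (-2.55). Mir101c came close to overlapping within Tln1 VPA, where array 2 was at 5.07 and array 3 at 5.64, and Hdc rested most on control 1 (9.36).

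Some of these genes took 2 narrow levels by set. Dad1, a subunit gene of the oligosaccharyltransferase that most cells use, was at 11.19, 11.17 and 10.87 on the podocyte-rich arrays and at 7.50, 7.42, 7.33, 7.25 and 7.30 on the others, a difference of 3.69 ± 0.10. Ttr (transthyretin) was at 7.34, 7.47 and 7.52 against 10.73 to 11.17. Olfr1454 was at 2.22, 2.22 and 2.08 against 5.53, 5.39, 5.59, 5.39 and 5.42. A wider measure, chosen after the values were seen, was a spread below 0.3 between the 3 differences. It held for 22 of the 71 higher and 87 of the 200 lower genes, but not for Nphs1, Slc7a7 or Slc5a2. This measure does not require narrow levels. Ces2b met it while running from 4.28 to 5.40 on the tubule-rich arrays, so the counts are not of genes that step as Dad1 does.

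The sets also differed as whole arrays. RMA, the method the deposited values come from, includes a quantile step that gives arrays processed together a common set of values. Any 2 podocyte-rich arrays held exactly equal values for 3759 to 4340 of 41345 probe sets (9.09% to 10.5%), any 2 tubule-rich arrays for 1989 to 2600 (4.81% to 6.29%), and any 2 arrays from different sets for 0 to 2 in all 15 pairs. After sorting each array, the mean gap between 2 arrays was 0.0081 to 0.0409 within the sets and 0.104 to 0.157 across them. The 99th percentile lay at 10.50 to 10.52 on podocyte-rich and at 10.80 to 10.85 on tubule-rich arrays. The labels name no run, date or batch, and each set holds 1 or 2 arrays of every group. Transcripts that differ between male and female mice also followed the sets. Cell content of the isolates, sex of the mice and separate processing of the sets thus cannot be told apart for any single gene.

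**Figure D5:**
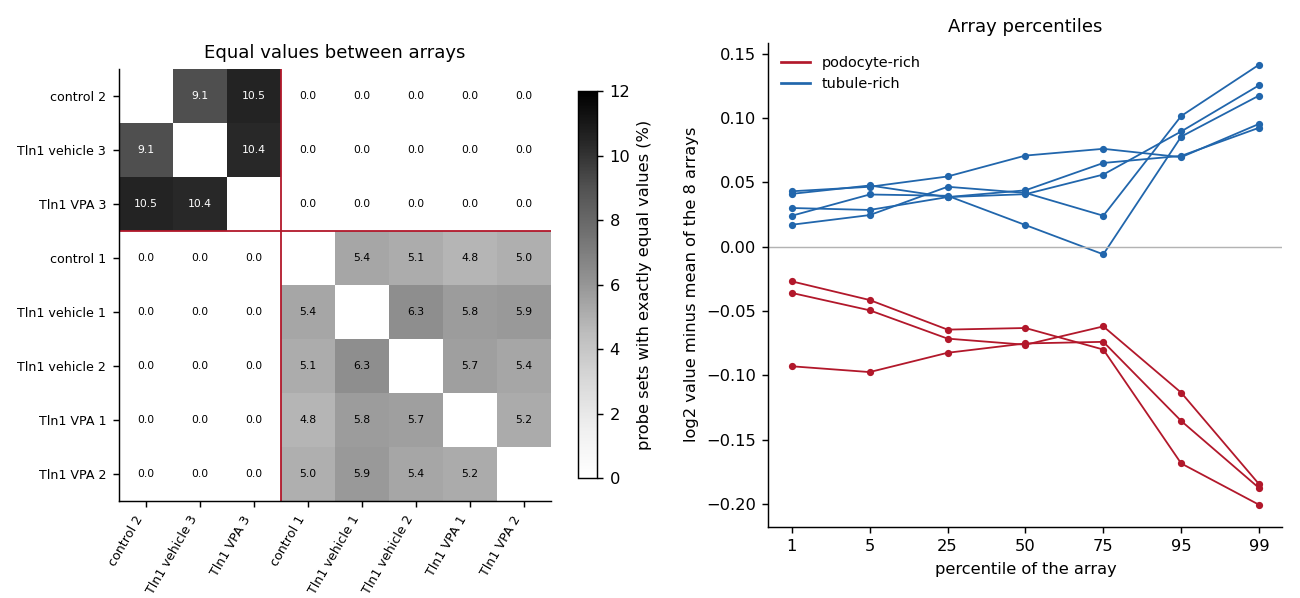
Left, percent of the 41345 probe sets with exactly equal values for each pair of arrays (darker is more), with red lines parting the 3 podocyte-rich from the 5 tubule-rich arrays; right, percentiles of each array (x axis) as the log2 value minus the mean of the 8 arrays (y axis), 1 line per array. Pairs across the sets are at 0.00484% or less, and the 2 sets of lines do not cross at any percentile drawn.

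Gene families that kidney is not known for, or that all cells share, had medians on both sides of that of all genes. Of 1105 olfactory receptor genes 333 were above 0 (median -0.11, 0.004 with centred arrays), and of 285 vomeronasal receptor genes 84 (median -0.12, -0.004 with centred arrays). These 1390 chemoreceptor genes supplied 4 of the 71 higher and 9 of the 200 lower genes, or 0.288% and 0.647% of the chemoreceptor genes beside 0.320% and 0.902% of all genes. Respiratory chain subunit genes had a median of -0.47 in 85 genes, ribosomal protein genes -0.23 in 63, and common reference genes -0.34 in 12, with Rplp0 at -0.92, Pgk1 at -0.61, Gusb at -0.54, Actb at -0.46, B2m at 0.13 and Tbp at 0.12. With quantile normalisation these 3 medians were -0.27, -0.04 and -0.06. Small nucleolar RNA genes had 0.27 in 73 genes, but -0.03 in Tln1 VPA. By level, the 2218 genes with the lowest means over the arrays had a median of -0.10 and the 2218 with the highest means -0.31.

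Because the sets cut across the study groups, comparisons of the groups read differently within each set. The median podocyte marker of Tln1 VPA minus control was -0.22 over all arrays, -0.36 on the podocyte-rich arrays alone and 0.14 on the tubule-rich arrays alone. For Tln1 vehicle minus control these values were -0.04, -0.12 and 0.25. Tln1 VPA minus Tln1 vehicle was -0.19, -0.22 and -0.15 for podocyte markers, but -0.06, 0.25 and -0.20 for proximal tubule markers. Every podocyte-rich value here sets 1 array against 1, and every value with control within a set rests on 1 control array.

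Whether the set difference itself differed between groups, which the choice of arrays did not use, was tested with limma over all 22180 genes and called 0 genes (0%) in each of the 3 contrasts. Unadjusted p lay below 0.05 for 2146 genes in Tln1 VPA minus Tln1 vehicle, 2689 in Tln1 vehicle minus control and 2258 in Tln1 VPA minus control, and the smallest Benjamini-Hochberg adjusted p values from limma were 0.0970, 0.216 and 0.146. With quantile normalisation, 10 genes were called in the first and 8 in the last contrast. The fit had 2 residual degrees of freedom, and each group has 1 podocyte-rich array, so that a single array can decide such a value. Both degrees of freedom come from tubule-rich arrays, Tln1 vehicle 1 and 2 and Tln1 VPA 1 and 2. The p values from limma thus hold no spread between podocyte-rich arrays or between controls. Gbp8, Igtp and Gm12250, interferon-inducible GTPase genes, had the smallest p among genes with a larger difference in Tln1 VPA. Gbp8 was at 9.37 on Tln1 VPA 3 and at 2.87 to 3.96 on the other 7 arrays, and its contrast was 5.56. In the other direction, Coch was at 9.28 on Tln1 vehicle 3 and at 4.40 to 5.17 elsewhere, a contrast of -4.57, and Hamp, the hepcidin gene, and Tcstv3 were likewise highest on that array, with contrasts of -3.34 and -1.37.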

How the data were processed

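Total RNA of isolated mouse glomeruli was measured on 8 Affymetrix arrays. Deposited are log2 expression values that the authors made by RMA, per the submitters' processing notes. Limma is named there too, and no version or build was given in the sources used here. Values ran from 1.49 to 13.9 over 41345 probe sets, of which 23521 had 1 gene symbol, 1814 several and 16010 none. Each gene is represented by its single-symbol probe set with the highest mean (22180 genes). By Entrez identifier, 23328 probe sets matched RefSeq's gene table, with 0 symbols altered. Of 315 list entries, 283 were measured. The number of arrays limits the precision.

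The arrays, lists and families were chosen with earlier results of these data known. Named are the 10 largest set differences per direction, the 4 largest members of each list with those of opposite sign, a set of common markers, the 3 genes per direction with the smallest interaction p and the 3 genes most like Nphs1 and Slc34a1. Further genes in the text were chosen after their values were seen. The interaction of group and set was fitted with limma 3.58.1 (lmFit, eBayes, 6 cells, two-sided, Benjamini-Hochberg, called below 0.05) in R 4.3.3 and tested on simulated data. All else is description, in Python 3.11.15. Deviations from the group means correlated across genes between Tln1 vehicle and Tln1 VPA arrays of the same number (r = 0.570, 0.609 and 0.787). The labels state no pairing, and number 3 is also the podocyte-rich array. The main fit therefore used no pairs, and the numbers were treated as pairs only in an alternative fit with a replicate block. Between the tubule-rich numbers alone r was 0.133.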

Additional observations from a re-analysis of the deposited data

Results flagged for a closer look

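Thick ascending limb genes had a median set difference of -0.602 in control against 0.589 in Tln1 vehicle and 0.530 in Tln1 VPA, and every pair of arrays within a Tln1 group moved opposite to the control pair. Glomerular endothelial genes did so between control (-0.260) and Tln1 vehicle (0.779), and the 2 measured female-biased kidney genes likewise (-0.219 and 1.774). All were noted because every pair in one group lay beyond 0.2 in one direction and every pair in the other beyond 0.2 in the opposite direction. None of these list differences between groups was tested, and each control value rests on 1 pair of arrays.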

How the results depend on the processing

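The 71 higher and 200 lower genes became 43 and 134 among genes above the median level, 133 and 116 with centred arrays, and 143 and 106 with quantile normalisation. With every probe set as its own row they were 207 and 394, with the threshold at 0.5 they were 576 and 1996, at 2 they were 2 and 7, and by the mean of the 3 differences 249 and 579. Leaving out 1 array gave 57 to 150 higher and 183 to 388 lower genes; the highest counts came without Tln1 VPA 3 (150 higher) and without either control array (388 lower, 137 higher), where only 2 groups are left to pass. The podocyte, proximal tubule and loop to collecting duct medians stayed within the spread of the groups under every alternative run, at 0.59 to 0.88, -1.08 to -0.66 and 0.16 to 0.46. The parietal epithelium median of -0.01 turned to 0.10 with centred arrays, 0.10 with quantile normalisation (0.104 and 0.105), 0.003 with plain means of 3 and 5 arrays, and ranged from -0.192 to 0.092 without 1 array; the cause was not tested. The interaction calls of 0 became 10 and 8 with quantile normalisation. With the replicate block limma called 0 genes in the 3 contrasts (unadjusted p below 0.05 for 2013, 1734 and 1659 genes) with 1 residual degree of freedom, too few to show whether pairing matters. Without Tln1 vehicle 3 or Tln1 VPA 3 the contrast between these groups could not be fitted. Signal over background was not among the values used here.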
